A study of Mus musculus with 6 samples.

Results

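The genes of nucleotide and polyamine synthesis were examined in naive CD8+ T cells of the mouse spleen, with and without the E3 ubiquitin ligase Nrdp1 (gene Rnf41). The members were 36 listed genes of purine, pyrimidine, deoxynucleotide and polyamine metabolism. A gene counted as measured where a probe set of the Affymetrix mouse expression array carried its symbol and no other, and the probe set with the highest mean signal over the arrays stood for it. By that rule 33 of the 36 members were measured, among 18193 genes in all. Impdh2, Amd1 and Sms had no probe set with that symbol alone and were not analysed here. There were 6 arrays. Nrdp1-/- cells, on a strain the labels give as C57/BL6, were hybridised untreated, after 4 h and after 8 h of stimulation. The stimulus was immobilized antibody to CD3 (5 µg/ml) together with antibody to CD28 in solution (1 µg/ml). Wild-type (Nrdp1+/+) cells of the same strain were hybridised in the same conditions, so each genotype had 1 array per condition. The labels name the stimulus in a shorter form as anti-CD28 alone, and do not state age, sex, how many mice gave an RNA or whether 1 animal lies behind several arrays. The p-values therefore measure the spread between these arrays, which may be technical.

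Resting T cells carry small nucleotide pools, and activation through the T cell receptor and CD28 prepares them to copy their genome and to build ribosomes and messenger RNA. Purines are made on a ribose phosphate by a chain of enzymes ending in inosine monophosphate, from which separate branches lead to AMP and GMP. Pyrimidines are made as a ring that is then joined to ribose phosphate, and salvage phosphoribosyltransferases and kinases recover bases and nucleosides from outside the chain. Polyamines (putrescine, spermidine and spermine) are made from ornithine and decarboxylated S-adenosylmethionine, and spermidine is the donor for the hypusine residue of translation factor eIF5A. Many of these enzymes are known targets of the transcription factor Myc.

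Values below are MAS5 signals, an intensity per probe set that the authors deposited, with the same trimmed mean on each array (500.0 on all 6). Signals are listed in the order untreated, 4 h and 8 h. A log2 change is given with its standard error from limma (SE, 6 arrays) in a model with time and genotype as additive terms, and a gene rose or fell where its Benjamini-Hochberg adjusted p over the 10838 genes tested was at most 0.05. The median signal of an array was 61.5 to 68.6, and a gene was tested where it reached the array median on at least 2 arrays. All 33 measured members passed that filter, and 31 of them reached the median on all 6 arrays. Tk1 reached it on 4 arrays and Tyms on 3, so both are close to background. The number of arrays limits the precision of each value.

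The brightest Rnf41 probe set read 528, 437 and 477 on Nrdp1-/- arrays and 728, 505 and 639 on wild-type arrays. It is not known here whether this probe set lies in the deleted part, so it does not check the labels. T cell transcripts were bright on every array, with Cd8a at 9822 to 10256 on Nrdp1-/- arrays and 8452 to 11335 on wild-type arrays. The extraction text in the labels names colon. Of 8 colon epithelium markers 5 (Krt18, Krt20, Vil1, Cdx1 and Muc2) lay below the array median on all 6 arrays, and Krt8 and Cdh1 reached it on 1 array. Epcam lay above it on all 6, at 173 to 241 on Nrdp1-/- arrays and 341 to 529 on wild-type arrays, and was lower in Nrdp1-/- cells (-1.06 ± 0.15, limma, adjusted p = 0.00141). The summed signal of 11 B cell markers was 2773 to 3081 on Nrdp1-/- arrays and 13530.0 to 15398 on wild-type arrays, with Fcer2a and Cr2 below the median throughout and 8 of 8 tested markers lower in Nrdp1-/- cells. The summed signal of 13 myeloid markers was 12116 to 20776 on Nrdp1-/- arrays and 9979 to 12343 on wild-type arrays, with Itgam below the median throughout, and 5 of 12 tested were higher in Nrdp1-/- cells. With stimulation 1 myeloid marker fell at 4 h and 5 at 8 h, and of 6 T cell markers Thy1 fell at both times and Cd8b1 at 8 h. The part of these markers in the changes described next was not tested. In such bulk samples fewer cells of a type and less RNA per cell cannot be told apart.

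A large share of the members was higher after 4 h of stimulation than in untreated cells. There were no separate untreated arrays for 4 h and for 8 h, so stimulation and time in culture cannot be told apart. At 4 h 13 of 33 members rose (39.4%, against 8.01% of all genes tested) and 1, Dck, fell (3.03%, against 5.51% of all genes). The risen members were Ppat, Gart, Pfas, Adsl and Atic of purine synthesis, Aprt of purine salvage, Cad, Umps and Ctps of pyrimidine synthesis, the nucleoside diphosphate kinase genes Nme1 and Nme2, and Odc1 and Srm of polyamine synthesis. At 8 h 16 rose (48.5%, against 9.88%) and 1, again Dck, fell (3.03%, against 9.26%), with Adss, Hprt and Azin1 added to the risen ones. The 4 h and 8 h comparisons share the untreated arrays. The median log2 change of the 33 members was 0.33, with a range of -0.54 to 2.16, against -0.05 over all genes at 4 h. At 8 h the median was 0.40, with a range of -0.96 to 2.62, against -0.07 over all genes. By signal alone, 21 of the 33 members lay higher on all 4 stimulated arrays than on both untreated arrays (63.6%, against 16.7% of all genes). Only 3 members, Cmpk1, Dck and Rrm2, lay lower on all 4 stimulated arrays (9.09%, against 21.7%). At 4 h alone 22 members lay higher on both arrays than on both untreated arrays (22.5% of all genes) and 4 lower (29%), and at 8 h 23 lay higher (24%) and 5 lower (32.1%). The calls rest on limma's estimate of the spread as a function of brightness: without that trend 1 member, Srm, rose at each time (limma, adjusted p = 0.0294 at 4 h and 0.0286 at 8 h), against 0.766% and 0.95% of all genes. At an unadjusted p under 0.05 without the trend 14 members were higher (11.3% of all genes) and 2 lower (11.3%) at 4 h, and 16 higher (12.7%) and 3 lower (13.9%) at 8 h. With the trend 23 members passed an unadjusted 0.05 at 4 h, in either direction (27.6% of all genes), and 24 at 8 h (32.4%). Of the 14 calls at 4 h, 7 (Srm, Odc1, Ctps, Cad, Gart, Pfas and Nme1) were kept when any 1 array was left out, and of the 17 at 8 h 10 were kept (the same 7 with Ppat, Umps and Nme2). At least a 2-fold rise with an adjusted p at most 0.05 was reached by 5 members at 4 h (2.47% of all genes) and by 7 at 8 h (2.87%). With each array centred on its median 11 members rose at 8 h, the calls of Atic, Adss, Hprt, Aprt and Azin1 being lost. With all probe sets of each gene averaged 11 rose at 4 h, without Ppat and Umps, and 12 at 8 h, without Ppat, Adss, Cad, Umps and Azin1 and with Dut added. The shares of all genes called with centred arrays or averaged probe sets are not given here. Calls lost by the members alone thus cannot be told from calls lost over all genes.

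**Figure D1:**
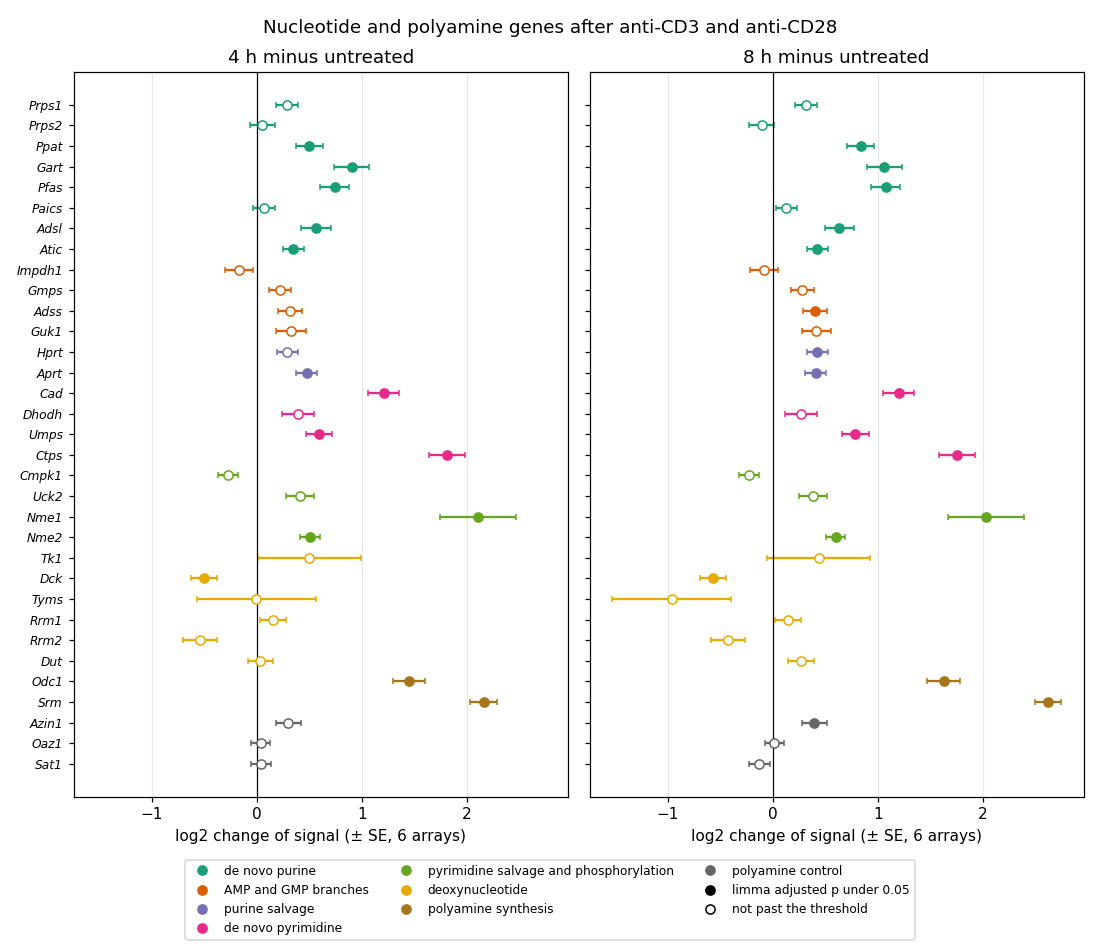
Log2 change of signal against untreated arrays for the 33 members, at 4 h (left) and 8 h (right), with bars of 1 SE from limma over 6 arrays and genes coloured by role. Filled points passed an adjusted p of 0.05. Srm lies furthest right at both times (2.16 and 2.62), and Dck is the filled point left of 0.

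Of the 8 members of de novo purine synthesis 5 rose at both times, against 8.01% of all genes at 4 h and 9.88% at 8 h. The 3 others were Prps1, Prps2 and Paics. Ppat encodes the amidotransferase that commits ribose phosphate to purine synthesis, and it read 720.4, 953 and 1265 on Nrdp1-/- arrays and 571, 868 and 1044 on wild-type arrays. Both 4 h arrays lay above both untreated arrays and both 8 h arrays lay higher still. It rose by 0.50 ± 0.12 at 4 h (limma, adjusted p = 0.0223) and by 0.84 ± 0.12 at 8 h (limma, adjusted p = 0.00113). At 4 h the call was lost without either untreated array or the wild-type 4 h array. A dimmer probe set of Ppat changed by 0.93 and 0.92, and the dimmest lay below the median on all arrays. With all 3 averaged the changes were 0.78 and 0.31 and did not pass (limma, adjusted p = 0.14 and 0.555). The trifunctional enzyme gene Gart read 905, 1323 and 1842 on Nrdp1-/- arrays and 679.5, 1631 and 1466 on wild-type arrays, and rose by 0.90 ± 0.16 and 1.06 ± 0.16. Without the wild-type 4 h array, the highest of that genotype, the change of Gart at 4 h was 0.57. Pfas, which encodes the amidotransferase that follows Gart's formylation step, read 523, 832 and 1199 on Nrdp1-/- arrays and 461, 817 and 904 on wild-type arrays. It rose by 0.74 ± 0.14 and 1.08 ± 0.14, or 1.67-fold and 2.11-fold, with no overlap between stimulated and untreated arrays.

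Of the other purine synthesis genes, Adsl and Atic rose and Paics, Prps1 and Prps2 did not pass. Adsl encodes a lyase that acts both in the chain and in the AMP branch, and it read 951, 1242 and 1576 on Nrdp1-/- arrays and 933, 1566 and 1364 on wild-type arrays. Its rise was 0.56 ± 0.14 at 4 h and 0.64 ± 0.14 at 8 h, and without the wild-type 4 h array its change at 4 h was 0.34 and did not pass. Atic, the bifunctional enzyme that closes the chain at inosine monophosphate, read 2089.9, 2644 and 2768 on Nrdp1-/- arrays and 2133, 2733 and 2899 on wild-type arrays. It rose by 0.35 ± 0.10 and 0.42 ± 0.10, and each call was kept in 2 of the 6 fits that left out 1 array, with values of 0.33 to 0.36 at 4 h. A dimmer Atic probe set changed by 1.01 at 4 h and 0.90 at 8 h. Paics, the bifunctional enzyme between Pfas and Adsl, was already bright in untreated cells. It read 6351, 6075 and 6729 on Nrdp1-/- arrays and 5871, 6751 and 6632 on wild-type arrays, with changes of 0.07 ± 0.10 and 0.13 ± 0.10 that did not pass. Its 3 probe sets did not move together, at 0.07, 0.12 and -0.33 at 4 h. Prps1 and Prps2 encode synthetases of the activated ribose phosphate (PRPP) that feeds purine, pyrimidine and salvage reactions. Prps1 lay higher on all 4 stimulated arrays (3047 to 3610.1) than on both untreated arrays (2628 to 2719.6) without passing, at 0.29 ± 0.10 and 0.32 ± 0.10. Prps2 changed by 0.05 ± 0.12 and -0.11 ± 0.12.

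Ppat and Paics are neighbours that start on opposite strands of chromosome 5, 276 bases apart, and are shown because one passed the test and the other did not. Atic is shown as the purine gene with an E-box (CACGTG, a motif bound by Myc and related factors) beside its start. Each window runs from 250 bases before to 50 after the start in RefSeq (GRCm38.p6), 5′ to 3′ on the gene's strand, at chr5:76951529-76951828 on the minus strand for Ppat, chr5:76951052-76951351 on the plus strand for Paics and chr1:71556906-71557205 on the plus strand for Atic. Capitals mark the motifs searched on both strands: the E-box CACGTG, the amino acid response element TGATGNAA and the cores TTGGCGC and TTCCCGC bound by E2F factors, none of which overlap in these windows.
Ppat: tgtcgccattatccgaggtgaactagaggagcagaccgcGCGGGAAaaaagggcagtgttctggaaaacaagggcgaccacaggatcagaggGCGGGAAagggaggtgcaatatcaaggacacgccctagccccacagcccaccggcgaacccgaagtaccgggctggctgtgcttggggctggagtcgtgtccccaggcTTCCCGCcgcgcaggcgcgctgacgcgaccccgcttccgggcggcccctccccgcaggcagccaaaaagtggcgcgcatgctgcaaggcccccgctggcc
Paics: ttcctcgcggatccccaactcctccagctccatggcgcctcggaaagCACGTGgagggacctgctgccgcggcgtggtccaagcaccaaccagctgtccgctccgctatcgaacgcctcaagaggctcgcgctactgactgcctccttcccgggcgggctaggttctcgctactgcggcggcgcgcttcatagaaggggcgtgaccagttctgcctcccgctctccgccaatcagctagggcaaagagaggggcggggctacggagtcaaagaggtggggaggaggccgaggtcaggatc
Atic: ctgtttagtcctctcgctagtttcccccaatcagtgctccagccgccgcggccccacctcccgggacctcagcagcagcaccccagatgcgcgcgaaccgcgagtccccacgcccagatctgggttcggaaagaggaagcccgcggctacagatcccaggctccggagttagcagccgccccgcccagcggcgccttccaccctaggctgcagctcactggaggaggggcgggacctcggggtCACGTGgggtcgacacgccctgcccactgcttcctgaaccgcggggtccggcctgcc
The Ppat window held 3 E2F cores, at -211, -158 and -50 from the start, and the Paics window held 1 E-box at -203. The E-box of Atic lay at -7. Of the 36 listed members 32 had a window, and 6 of these (18.8%) held an E-box, against 8.09% of all 27025 genes with a window: Paics, Atic, Nme1, Tyms and the unmeasured Impdh2 and Sms. E2F cores stood in 6 members too (Prps1, Prps2, Ppat, Impdh2, Adss and Rrm1; 18.8%, against 7.79% of all genes), and the amino acid response element in 1, Prps1 (3.12%, against 4.51%). Of the 4 measured members with an E-box, Atic and Nme1 rose and Paics and Tyms did not pass. A match in these letters is a description of the sequence and does not show binding.

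The branches from inosine monophosphate to AMP and GMP held 4 measured members. None passed at 4 h (8.01% of all genes rose) and 1 rose at 8 h (against 9.88%). Adss encodes the adenylosuccinate synthase of the AMP branch and read 4606, 5485 and 5260.2 on Nrdp1-/- arrays and 3604, 4665 and 5507 on wild-type arrays. It changed by 0.31 ± 0.12 at 4 h (limma, adjusted p = 0.102) and rose by 0.40 ± 0.12 at 8 h (limma, adjusted p = 0.0327). That rise was 0.27 without the untreated wild-type array and 0.22 without the wild-type 8 h array, and passed in neither. In the GMP branch the dehydrogenase gene Impdh1 changed by -0.17 ± 0.13 and -0.08 ± 0.13 and the GMP synthase gene Gmps by 0.22 ± 0.11 and 0.28 ± 0.11. Guk1, the kinase that makes GDP, read 1043, 1463 and 1712 on Nrdp1-/- arrays and 1291, 1452 and 1405 on wild-type arrays, and its changes of 0.33 ± 0.14 and 0.42 ± 0.14 did not pass.

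Both purine salvage genes rose at 8 h (against 9.88% of all genes). With the arrays centred on their medians neither call was kept (limma, adjusted p = 0.0532 for Hprt and 0.0633 for Aprt). Hprt, which recovers hypoxanthine and guanine, read 3991, 5097 and 5794 on Nrdp1-/- arrays and 4349.7, 5081 and 5401 on wild-type arrays. Its change of 0.29 ± 0.10 at 4 h did not pass (limma, adjusted p = 0.086), and it rose by 0.42 ± 0.10 at 8 h (limma, adjusted p = 0.0143). That call was lost without the untreated or the 8 h Nrdp1-/- array. Aprt, which recovers adenine, read 2287, 3174 and 3144 on Nrdp1-/- arrays and 2337, 3254 and 3006 on wild-type arrays, and rose by 0.47 ± 0.10 at 4 h and 0.41 ± 0.10 at 8 h. Its 4 stimulated arrays lay close together and well clear of both untreated arrays. At 4 h its call was lost without either untreated array, and at 8 h without either untreated array or the 8 h Nrdp1-/- array. Over all 6 fits that left out 1 array its values were 0.45 to 0.50 at 4 h and 0.36 to 0.46 at 8 h.

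De novo pyrimidine synthesis held 3 risen members of 4 at both times (against 8.01% of all genes at 4 h and 9.88% at 8 h). Cad encodes the trifunctional protein of the opening pyrimidine steps, whose carbamoyl phosphate synthetase activity sets the rate. It read 481, 1034 and 1234 on Nrdp1-/- arrays and 472, 1181 and 980.0 on wild-type arrays. All 4 stimulated arrays lay far above both untreated arrays, which differed little from each other. Cad rose by 1.21 ± 0.15 at 4 h (2.31-fold, limma, adjusted p = 0.000298) and by 1.20 ± 0.15 at 8 h (2.30-fold, limma, adjusted p = 0.000283). A second bright probe set of Cad rose by 1.08 and 0.97 in a fit with the next brightest probe set of each member. With the dimmest, below the median on all arrays, averaged in, the change at 8 h was 0.81 and did not pass (limma, adjusted p = 0.0509). Umps, which joins the ring to ribose phosphate and decarboxylates it to UMP, read 658, 1058 and 1145 on Nrdp1-/- arrays and 522, 740.0 and 898 on wild-type arrays. It rose by 0.59 ± 0.13 and 0.79 ± 0.13. Its call at 4 h was lost without the untreated or the 4 h Nrdp1-/- array, and its lowest value with 1 array left out was 0.50. With its 4 probe sets averaged the changes were 0.70 and 0.67 and passed at neither time (limma, adjusted p = 0.115 and 0.11). Ctps encodes CTP synthase 1, on which proliferating lymphocytes depend, and read 403, 1393 and 1736 on Nrdp1-/- arrays and 425, 1532 and 1138 on wild-type arrays. It had the largest rise of the nucleotide genes apart from Nme1, at 1.81 ± 0.17 (3.50-fold, limma, adjusted p = 5.59e-05) and 1.75 ± 0.17 (3.37-fold, limma, adjusted p = 5.86e-05). Dhodh, the mitochondrial dehydrogenase between Cad and Umps, read 381, 534 and 485 on Nrdp1-/- arrays and 394, 488 and 450.5 on wild-type arrays. Its changes of 0.39 ± 0.15 and 0.27 ± 0.15 did not pass, although all 4 stimulated arrays lay above both untreated arrays. On its other probe set the genotypes moved in opposite directions. That one read 170, 275 and 396 on Nrdp1-/- arrays and 272, 251 and 237 on wild-type arrays.

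The windows of Cad and Ctps are shown as those of the pyrimidine genes with the largest changes, at chr5:31054530-31054829 on the plus strand and chr4:120570227-120570526 on the minus strand (GRCm38.p6). Neither held any of the motifs, so neither has capitals, and for Ctps the other of its 2 RefSeq windows held none.
Cad: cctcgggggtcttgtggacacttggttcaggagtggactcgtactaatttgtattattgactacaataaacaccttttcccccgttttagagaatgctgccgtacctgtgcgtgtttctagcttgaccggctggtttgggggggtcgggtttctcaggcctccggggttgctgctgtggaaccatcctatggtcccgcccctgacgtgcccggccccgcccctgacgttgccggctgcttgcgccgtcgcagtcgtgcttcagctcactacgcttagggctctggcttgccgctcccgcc
Ctps: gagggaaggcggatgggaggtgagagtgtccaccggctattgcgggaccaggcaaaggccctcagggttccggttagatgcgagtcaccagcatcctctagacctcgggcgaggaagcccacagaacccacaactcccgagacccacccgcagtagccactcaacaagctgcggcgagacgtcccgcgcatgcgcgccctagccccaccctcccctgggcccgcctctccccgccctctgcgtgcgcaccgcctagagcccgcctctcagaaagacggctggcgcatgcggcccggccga

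Of the kinases that charge pyrimidine and other nucleotides, Nme1 and Nme2 rose and Cmpk1 and Uck2 did not pass. The shares of all genes that rose were 8.01% at 4 h and 9.88% at 8 h. Nme2 encodes a nucleoside diphosphate kinase that makes triphosphates, and read 12076, 16440.1 and 17263 on Nrdp1-/- arrays and 10149, 14983 and 16282 on wild-type arrays. All 4 stimulated arrays lay above both untreated arrays, and Nme2 rose by 0.50 ± 0.09 at 4 h and 0.60 ± 0.09 at 8 h. At 4 h its value without the untreated wild-type array was 0.43 and did not pass. Nme1 encodes the closely related kinase, and its brightest probe set read 1817, 5041 and 3344 on Nrdp1-/- arrays and 682, 4582 and 6206 on wild-type arrays. The untreated wild-type array was by far the lowest, and the genotypes took opposite orders at 0 h and 8 h. It rose by 2.11 ± 0.36 (limma, adjusted p = 0.00313) and 2.03 ± 0.36 (limma, adjusted p = 0.00314). Without the untreated wild-type array these rises were 1.21 and 1.14, and without the wild-type 8 h array the rise at 8 h was 1.20. The other Nme1 probe set read 1460.3, 3406 and 4569 on Nrdp1-/- arrays and 1263, 2868 and 3413 on wild-type arrays, in parallel in both genotypes. Fitted in place of the brightest one, it rose by 1.20 ± 0.11 and 1.54 ± 0.11 (limma, adjusted p = 3.12e-05 and 3.92e-06). Nme1 and Nme2 are near-identical paralogs and the brightest Nme1 probe set is of the type (x) whose probes can match other transcripts, so the level and genotype pattern of Nme1 are uncertain.

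The Nme1 window at chr11:93968223-93968522 on the minus strand (GRCm38.p6) is shown for its E-box, which begins 18 bases before the start.
Nme1: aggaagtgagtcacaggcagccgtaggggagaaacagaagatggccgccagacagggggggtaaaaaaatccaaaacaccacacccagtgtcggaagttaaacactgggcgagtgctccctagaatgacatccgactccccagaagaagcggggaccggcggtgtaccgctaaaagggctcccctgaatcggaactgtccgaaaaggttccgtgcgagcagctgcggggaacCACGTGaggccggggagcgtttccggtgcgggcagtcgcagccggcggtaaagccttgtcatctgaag
The other of its 2 RefSeq windows held an E-box at -29, and whether this is the same site counted from another start was not examined.

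Cmpk1, which phosphorylates UMP and CMP, read 8190.4, 6739.7 and 7095 on Nrdp1-/- arrays and 7501, 6228 and 6311 on wild-type arrays. It was lower on all 4 stimulated arrays without passing, at -0.27 ± 0.09 and -0.23 ± 0.09. Uck2, a uridine and cytidine kinase, read 1435, 1681 and 1939 on Nrdp1-/- arrays and 1356, 2047 and 1713 on wild-type arrays, and its changes of 0.41 ± 0.13 (limma, adjusted p = 0.0603) and 0.39 ± 0.13 (limma, adjusted p = 0.0609) did not pass. The next brightest of its 6 probe sets rose by 0.96 ± 0.16 and 1.10 ± 0.16 when fitted in its place (limma, adjusted p = 0.00268 and 0.00101). Dimmer Uck2 probe sets at or above the median on all 6 arrays changed by 0.08, 0.10 and 0.16 at 4 h. At 8 h they changed by 0.60, -0.11 and 0.47, so the Uck2 probe sets did not move together. The dimmest lay below the median on all arrays.

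**Figure D2:**
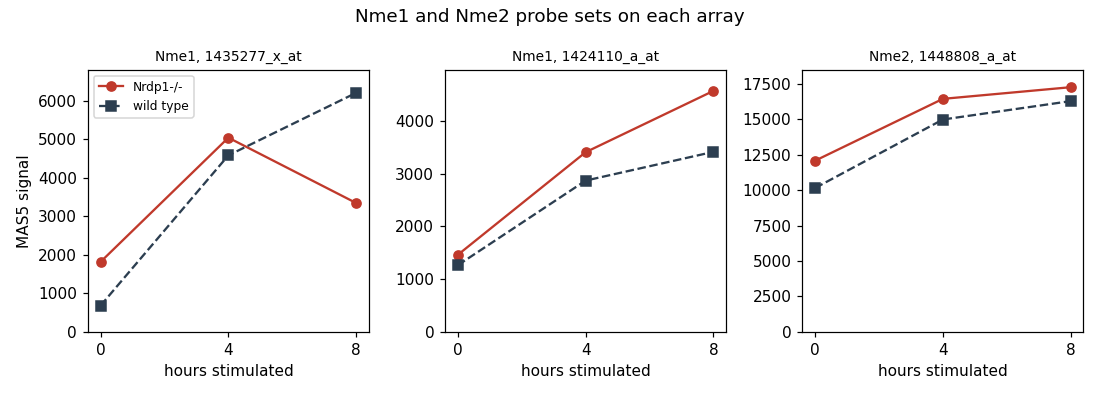
MAS5 signal against hours of stimulation for the 2 Nme1 probe sets and the Nme2 probe set, with 1 array per point, Nrdp1-/- as solid lines and wild type as dashed lines. In the left panel the genotypes cross between 4 h and 8 h (3344 in Nrdp1-/- and 6206 in wild-type cells at 8 h), and in the other panels Nrdp1-/- lies above wild type at each time.

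Of 6 measured members of deoxynucleotide supply 0 rose in limma with the brightest probe sets (against 8.01% of all genes at 4 h and 9.88% at 8 h). At each time 1 fell (against 5.51% and 9.26%). Counts in so small a group cannot be told from those shares, and Tk1 and Tyms lay near background. At an unadjusted p under 0.05 the 1 higher member was Dut at 8 h. Dctd, which makes dUMP, is not among these members and is described below. Dck, the salvage kinase for deoxycytidine, deoxyadenosine and deoxyguanosine, read 8083, 4713 and 4925 on Nrdp1-/- arrays and 7562, 6446 and 5626 on wild-type arrays. It fell by 0.50 at 4 h (-0.50 ± 0.12, limma, adjusted p = 0.0217) and by 0.57 at 8 h (-0.57 ± 0.12, limma, adjusted p = 0.00959). The stimulated arrays did not overlap the untreated ones, and the larger step was in Nrdp1-/- cells. Without the untreated Nrdp1-/- array its changes were -0.30 and -0.36, without the 4 h Nrdp1-/- array that at 4 h was -0.30, and these did not pass. The next brightest Dck probe set changed by -0.63 ± 0.24 and -0.47 ± 0.24 and did not pass. Rrm2, the small subunit of ribonucleotide reductase that is made in S phase, read 575, 354 and 372 on Nrdp1-/- arrays and 538, 413 and 461 on wild-type arrays. All 4 stimulated arrays lay below both untreated arrays, but its changes of -0.54 ± 0.16 (limma, adjusted p = 0.0506) and -0.42 ± 0.16 (limma, adjusted p = 0.0932) did not pass. The large subunit gene Rrm1 changed by 0.15 ± 0.12 and 0.14 ± 0.12, and Dut, which removes dUTP, by 0.03 ± 0.12 and 0.27 ± 0.12. A dim second Dut probe set, at or above the median on 3 arrays, changed by 1.04 at 4 h and 1.64 at 8 h, and with both averaged Dut rose at 8 h (0.96, limma, adjusted p = 0.0378).

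Thymidylate genes were near background. Tyms, the thymidylate synthase gene, read 63.6, 62 and 31.1 on Nrdp1-/- arrays and 67.8, 68.9 and 32 on wild-type arrays, with changes of -0.01 ± 0.57 and -0.96 ± 0.57. Tk1, the thymidine kinase gene of cycling cells, read 75.1, 74.5 and 93.1 on Nrdp1-/- arrays and 36.8, 78.7 and 57.2 on wild-type arrays, with changes of 0.50 ± 0.49 and 0.44 ± 0.49. The summed signal of 9 markers of cycling cells was 2521 to 3396 on stimulated arrays and 3029 to 3914 on untreated arrays. Of these markers Plk1 fell at 4 h and Mki67, Birc5 and Plk1 fell at 8 h, with 0 risen, and the part of cycling cells in the values of this group was not tested.

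Both measured genes of polyamine synthesis rose at both times (against 8.01% of all genes at 4 h and 9.88% at 8 h). Srm had the largest change of the 33 members. Odc1 encodes ornithine decarboxylase, the rate-limiting enzyme that makes putrescine, and it read 1875, 5376 and 7534 on Nrdp1-/- arrays and 2422, 6309 and 5764 on wild-type arrays. Every stimulated array lay far above both untreated arrays. Odc1 rose by 1.45 ± 0.15 at 4 h (2.73-fold, limma, adjusted p = 0.000123) and by 1.63 ± 0.15 at 8 h (3.09-fold, limma, adjusted p = 4.47e-05). Srm, spermidine synthase, read 633, 2896 and 4514 on Nrdp1-/- arrays and 606, 2662 and 3241 on wild-type arrays. The untreated arrays of the genotypes were close, and the 8 h arrays were the highest of each genotype. Srm rose by 2.16 ± 0.13 at 4 h (4.46-fold, limma, adjusted p = 9.95e-07) and by 2.62 ± 0.13 at 8 h (6.14-fold, limma, adjusted p = 2.16e-07). It was the 1 member called at both times under every alternative that was run, with values of 2.04 to 2.27 at 4 h and 2.43 to 2.81 at 8 h. Srm has 1 probe set on the array, and the 3 probe sets of Odc1 moved the same way, at 1.45, 1.14 and 0.77 at 4 h.

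Genes that control polyamines moved little beside them. Azin1, the antizyme inhibitor that protects ornithine decarboxylase, read 1340.4, 1739 and 1678 on Nrdp1-/- arrays and 1255, 1468 and 1737 on wild-type arrays. It changed by 0.30 ± 0.12 at 4 h (limma, adjusted p = 0.122) and rose by 0.40 ± 0.12 at 8 h (limma, adjusted p = 0.0375). That call was lost without either untreated array or the wild-type 8 h array. Over all 6 fits that left out 1 array its values were 0.29 to 0.50. Oaz1, the antizyme that directs ornithine decarboxylase to the proteasome and whose protein is made by a polyamine-dependent frameshift, read 22263, 23203 and 21851 on Nrdp1-/- arrays and 22265, 22458 and 23167 on wild-type arrays. Its arrays lay within a narrow band, with changes of 0.04 ± 0.09 and 0.02 ± 0.09. Sat1, the acetyltransferase that starts polyamine breakdown, read 7042, 6771 and 6279.9 on Nrdp1-/- arrays and 6817, 7501 and 6409 on wild-type arrays, with changes of 0.04 ± 0.10 and -0.13 ± 0.10 that did not pass.

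The Odc1 window at chr12:17544623-17544922 on the plus strand (GRCm38.p6) is shown as that of the rate-limiting polyamine gene, and it held none of the motifs.
Odc1: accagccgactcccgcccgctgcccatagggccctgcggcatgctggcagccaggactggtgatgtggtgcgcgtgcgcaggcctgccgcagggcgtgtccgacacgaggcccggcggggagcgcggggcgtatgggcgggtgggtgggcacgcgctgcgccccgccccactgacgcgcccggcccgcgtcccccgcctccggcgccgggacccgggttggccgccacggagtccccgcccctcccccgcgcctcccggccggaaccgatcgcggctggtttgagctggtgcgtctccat

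**Figure D3:**
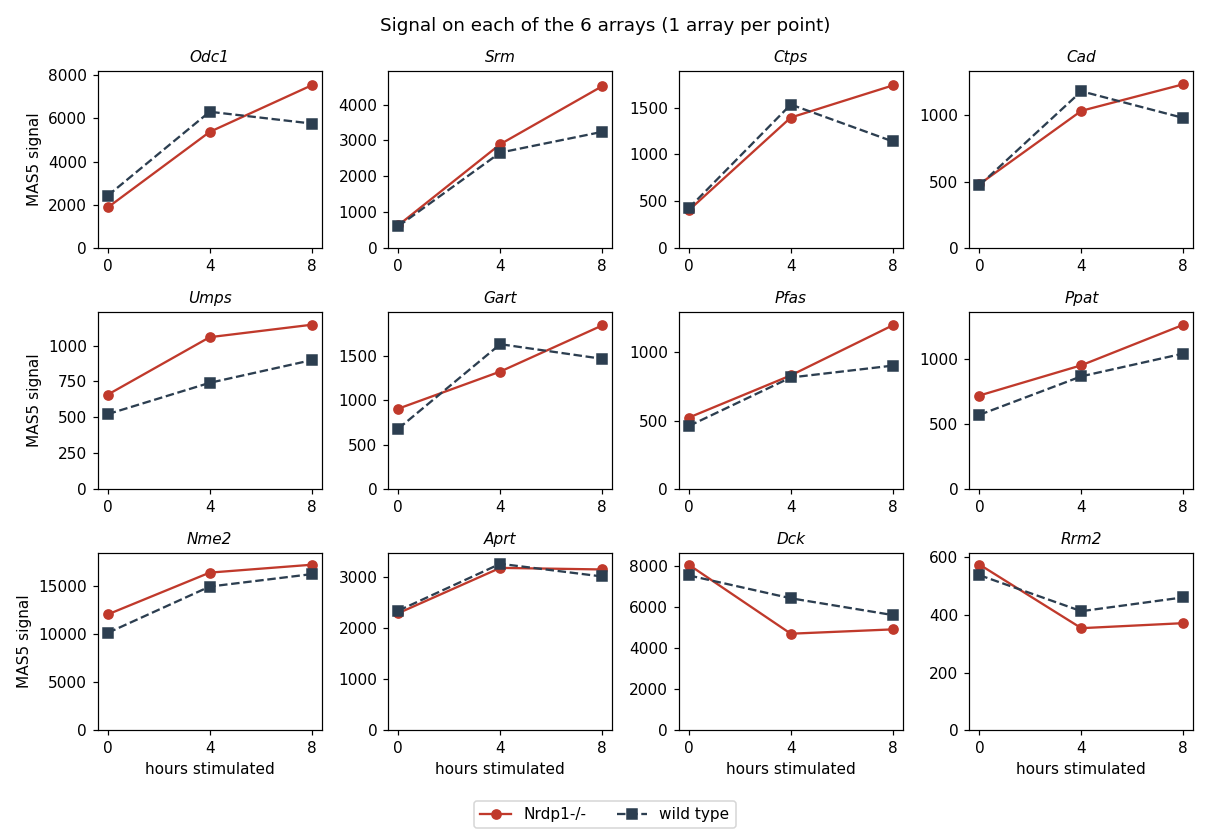
MAS5 signal on each of the 6 arrays for 12 members, against hours of stimulation, with Nrdp1-/- as solid lines and wild type as dashed lines and 1 array per point. Srm stood at 4514 in Nrdp1-/- and 3241 in wild-type cells at 8 h. For Odc1, Ctps, Cad and Gart, each by its brightest probe set, the wild-type line turns down after 4 h while the Nrdp1-/- line goes on upwards. The other Gart probe sets, not shown, do not turn down in wild-type cells.

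Between 4 h and 8 h 0 of 33 members rose and 0 fell (limma, against 0.0185% and 0.0277% of all genes), with 3 (Ppat, Pfas and Srm, all higher at 8 h) at an unadjusted p under 0.05 (8.37% of all genes). Without the trend 0 members and 0 of all genes passed, with 2 members higher (3.34% of all genes) and 1 lower (3.71%) at an unadjusted p under 0.05. The change of Srm was 0.46 ± 0.13 (limma, adjusted p = 0.286), that of Ppat 0.34 ± 0.12 and that of Pfas 0.33 ± 0.14. Without the wild-type 8 h array Srm passed at 0.65 (limma, adjusted p = 0.029) and Nme1 at -0.91 (limma, adjusted p = 0.00597). The step differed in direction between the genotypes for a number of members, with 1 array behind each value and no test. In 11 of 33 members the signal was higher at 8 h than at 4 h in Nrdp1-/- cells and lower in wild-type cells (33.3%, against 21.9% of all genes). The opposite pattern was seen in 5 (15.2%, against 27.9%), namely Gmps, Adss, Nme1, Azin1 and Oaz1. On its brightest probe set Nme1 stepped by -0.59 in Nrdp1-/- cells and 0.44 in wild-type cells. Adss stepped by -0.06 in Nrdp1-/- cells and 0.24 in wild-type cells. Counted by genotype, 23 members read higher at 8 h than at 4 h in Nrdp1-/- cells (69.7%, against 46.1%) and 17 in wild-type cells (51.5%, against 52%). The log2 step of Ctps was 0.32 in Nrdp1-/- cells and -0.43 in wild-type cells, and that of Odc1 was 0.49 in Nrdp1-/- cells and -0.13 in wild-type cells. Gart stepped by 0.48 in Nrdp1-/- cells and -0.15 in wild-type cells, and Cad by 0.25 in Nrdp1-/- cells and -0.27 in wild-type cells. The other Gart probe sets read higher at 8 h than at 4 h in wild-type cells (658 against 592, 566 against 373 and 126 against 101). In wild-type cells the second Cad probe set read lower at 8 h (876 against 1079). The other Odc1 probe sets differed in direction there (4037 against 4380 and 407 against 369). Adsl stepped by 0.34 in Nrdp1-/- cells and -0.20 in wild-type cells. These are members of separate pathways whose array values share the same 4 arrays, and the median step of all 33 members was 0.09 in Nrdp1-/- cells and 0.00 in wild-type cells, against -0.03 in Nrdp1-/- cells and 0.01 in wild-type cells over all genes.

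No member passed the test between Nrdp1-/- and wild-type cells. Of 33 members 0 were higher and 0 lower in Nrdp1-/- cells over the 3 times (limma, against 2.47% and 2.57% of all genes). At an unadjusted p under 0.05 there were 3 (Ppat, Umps and Rrm1, all higher; 16.5% of all genes). Without the trend 0 members passed, against 42 genes higher and 57 lower among all genes tested. At an unadjusted p under 0.05 without the trend 2 members were higher (6.9% of all genes) and 0 lower (7.28%). Umps came closest, higher in Nrdp1-/- cells by 0.33 untreated, 0.51 at 4 h and 0.35 at 8 h, with a mean difference of 0.40 ± 0.10 (limma, adjusted p = 0.054). Its next brightest probe set differed by -0.04 over the 3 times. Rrm1 differed by 0.29 ± 0.10 (limma, adjusted p = 0.158) and Ppat by 0.25 ± 0.10 (limma, adjusted p = 0.249). On their next brightest probe sets the differences were -0.02 for Rrm1 and 0.09 for Ppat. Srm differed by 0.22 ± 0.10, Odc1 by -0.07 ± 0.13, Ctps by 0.13 ± 0.14 and Cad by 0.05 ± 0.12, and none passed. When either 8 h array was left out Nme1 was higher in Nrdp1-/- cells by 0.77 (limma, adjusted p = 0.000236 and 0.00019), and it was lower by 0.38 on the 4 stimulated arrays alone without passing.

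At single times, with 1 array per genotype and no test, 22 of 33 members read higher in Nrdp1-/- than in wild-type cells when untreated (66.7%, against 47.4% of all genes). At 4 h this held for 17 (51.5%, against 51.3%) and at 8 h for 22 (66.7%, against 46%). The members' median difference was 0.08 untreated, 0.00 at 4 h and 0.11 at 8 h, against -0.02, 0.01 and -0.03 over all genes. At 8 h the leading differences were in Tk1, close to background, at 0.66, Ctps at 0.61, Srm at 0.48, Pfas at 0.41, Rrm1 at 0.40 and Odc1 at 0.39, and Nme1 went the other way at -0.89. Higher in Nrdp1-/- cells at all 3 times were 8 members (Prps1, Ppat, Pfas, Umps, Cmpk1, Nme2, Rrm1 and Srm; 24.2%, against 17.4% of all genes), and lower at all 3 were Atic and Tyms (6.06%, against 20.2%). B cell and myeloid markers differed between the genotypes on the same arrays, with the sums given above, and their part in these differences was not tested. Of the 9 markers of cycling cells Mki67 was higher in Nrdp1-/- cells (0.63 ± 0.14, limma, adjusted p = 0.0269), and their summed signal was 3914, 3396 and 2951 on Nrdp1-/- arrays and 3029, 2521 and 2903 on wild-type arrays. Their part was not tested either.

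**Figure D4:**
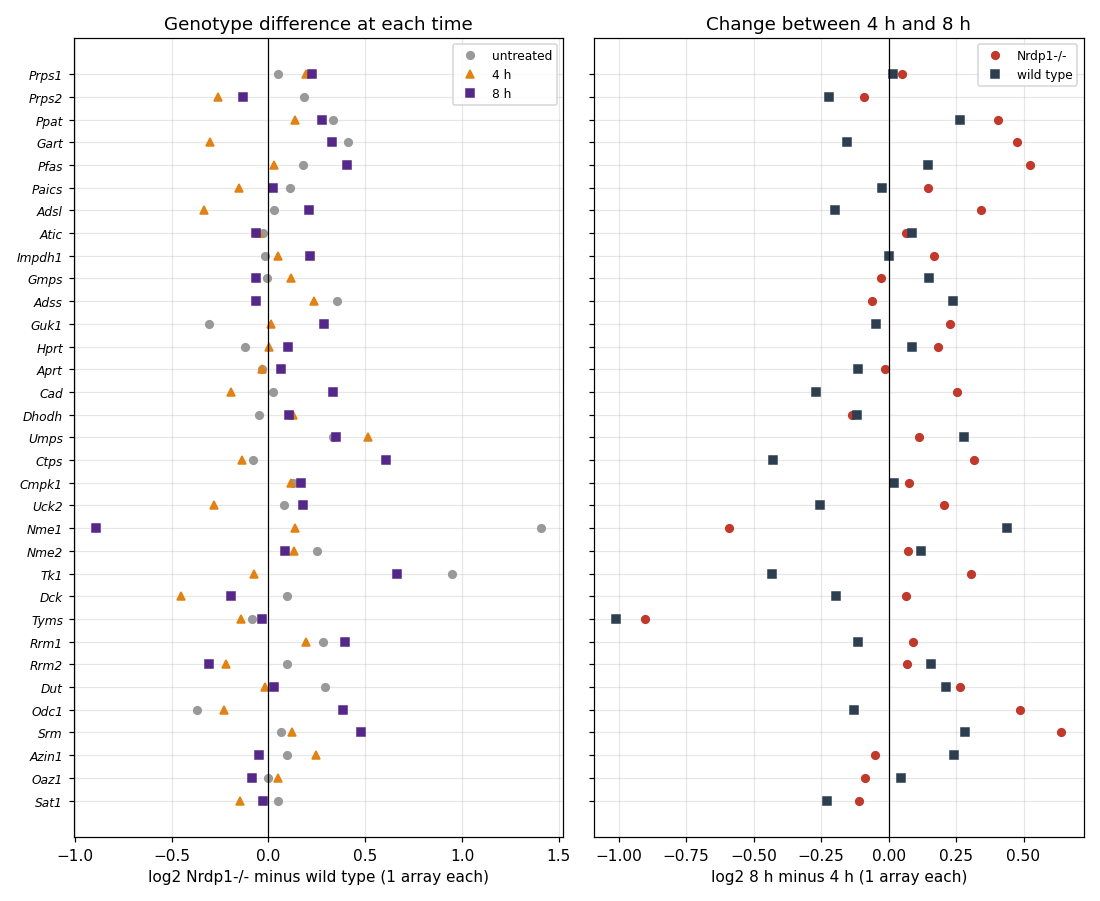
Left, log2 difference of Nrdp1-/- minus wild type for each member when untreated (circles), at 4 h (triangles) and at 8 h (squares), 1 array each. Right, log2 change between 4 h and 8 h in Nrdp1-/- cells (circles) and wild-type cells (squares). On the left Nme1 spans 1.41 to -0.89, and on the right Ctps is at 0.32 in Nrdp1-/- and -0.43 in wild-type cells.

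Whether the response to stimulation differed between genotypes was tested with a genotype-by-stimulation term. Of 33 members 0 had a larger response in Nrdp1-/- cells (against 0.0923% of all genes) and 1, Nme1, a smaller one (3.03%, against 0.129%), at -1.78 ± 0.23 (limma, adjusted p = 1.4e-10). It was also the 1 member at an unadjusted p under 0.05 (3.75% of all genes). The fit had 1 residual degree of freedom and its prior was estimated as infinite, so this p rests on the trend alone, and without the trend it was not past the threshold (limma, adjusted p = 1). With the other Nme1 probe set the term was 0.13 (limma, adjusted p = 1), and with both averaged it was -0.83 (limma, adjusted p = 1). The term was 0.45 ± 0.23 for Odc1, 0.31 ± 0.27 for Ctps, 0.24 ± 0.24 for Srm and -0.42 ± 0.23 for Dck, and these did not pass. The next brightest Dck probe set gave -1.18 ± 0.24 (limma, adjusted p = 0.00134), in a fit that also had 1 residual degree of freedom. The dimmest Dck probe set, at or above the median on all 6 arrays, gave -0.05 with no test, so the Dck probe sets did not share a difference of that size.

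The remaining genes of these pathways moved in both directions. Of 82 further genes of purine, pyrimidine, deoxynucleotide, polyamine and pentose phosphate metabolism and nucleoside transport, 60 were tested, and 10 rose (16.7%, against 8.01% of all genes) and 1 fell (1.67%, against 5.51%) at 4 h. At 8 h 9 rose (15%, against 9.88%) and 7 fell (11.7%, against 9.26%). Their median change was 0.06 at 4 h and 0.05 at 8 h, against -0.05 and -0.07 over all genes. Among pyrimidine genes Dctd, the deaminase that makes dUMP from dCMP, read 87.4, 278 and 467 on Nrdp1-/- arrays and 62.5, 269 and 311 on wild-type arrays. It rose by 1.83 ± 0.24 and 2.30 ± 0.24, and Cmpk2, a mitochondrial nucleotide kinase that interferon induces, by 1.36 ± 0.33 and 1.80 ± 0.33. Nt5c3b (-0.48 ± 0.13) and Ctps2 (-0.34 ± 0.11), which encodes the other CTP synthase, fell at 8 h.

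Of the 8 tested genes listed as further deoxynucleotide genes, the 2 that rose at each time, Dctpp1 and Samhd1, break deoxynucleotides down. Dctd, listed with the pyrimidine genes above, also acts on a deoxynucleotide and rose at both times. Dctpp1, a dCTP pyrophosphatase, rose by 0.99 ± 0.14 at 4 h and 1.22 ± 0.14 at 8 h. Samhd1, which degrades deoxynucleoside triphosphates and limits viral replication, read 7998, 16177 and 17513 on Nrdp1-/- arrays and 7111, 8984 and 15345 on wild-type arrays, and rose by 0.68 ± 0.15 and 1.12 ± 0.15. The 4 h arrays of the genotypes stood far apart. Dguok, the mitochondrial deoxyguanosine kinase, fell at 8 h (-0.45 ± 0.13). Of 14 tested purine genes, Adk (adenosine kinase, 0.75 ± 0.13) and Xdh (0.67 ± 0.15) rose and Ampd3 (-1.25 ± 0.30) fell at 4 h. At 8 h Ampd2, an AMP deaminase, rose (0.54 ± 0.12) and Ampd3 (-1.39 ± 0.30) and Nt5e (-0.59 ± 0.13), which encodes the ectonucleotidase CD73, fell.

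In polyamine metabolism Eif5a, whose protein carries the spermidine-derived hypusine, rose by 0.72 ± 0.11 at 4 h and at 8 h. Mtap, which recycles the methylthioadenosine that spermidine synthesis releases, rose by 0.68 ± 0.11 and 0.59 ± 0.11, and the antizyme gene Oaz2 fell at 8 h (-0.35 ± 0.11). The pentose phosphate gene Tkt (transketolase) rose by 0.45 ± 0.09 and 0.44 ± 0.09, H6pd fell at 8 h (-0.72 ± 0.16), and the nucleoside transporter gene Slc29a1 rose by 0.98 ± 0.25 and 0.82 ± 0.25. Between genotypes 1 of the 60 was higher in Nrdp1-/- cells (1.67%, against 2.47% of all genes) and 2 were lower (3.33%, against 2.57%). The higher one was Ampd2 (0.38 ± 0.10, limma, adjusted p = 0.0425). Adi1, a dioxygenase of methionine salvage, read 480, 329 and 374 on Nrdp1-/- arrays and 1207, 1073 and 1166 on wild-type arrays, with no overlap, and differed by -1.55 ± 0.12 on the log2 scale (limma, adjusted p = 1.21e-05). Nt5e differed by -0.51 ± 0.11 (limma, adjusted p = 0.0181).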

How the data were processed

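RNA of 6 samples, 1 per genotype and time, was hybridised to 1-colour Affymetrix mouse expression arrays. The deposited values were 1 intensity per probe set and array, made with MAS5 per the submitters' processing notes, and no further step was stated. They had the same trimmed mean (500.0) on all arrays, with 2% left out at each end, and no renormalisation was applied. Of 45101 probe sets, 34945 carried 1 gene symbol in the platform annotation, 932 carried several and 9160 were not listed, which gave 18193 genes by the brightest probe set each. The deposited intensities were put on the log2 scale after adding their 10th percentile (4.45). Genes at or above the array median on at least 2 arrays (10838) were fitted with limma 3.58.1 in R 4.3.3 (additive time and genotype, eBayes with trend, 2 residual degrees of freedom), with Benjamini-Hochberg adjustment over all genes tested and a threshold of 0.05. A genotype-by-stimulation term was fitted separately. The script was checked on simulated data for the 4 h comparison. Their spread was drawn as a smooth function of brightness, so the check could not test the trend on which the calls rest.

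With 1 array per group there is no replicate, so the spread comes from departures from additivity, and values at single times have no test. The alternatives were other scaling, pseudocounts, filters, probe set rules, moderation, models and leaving out each array. Every measured member is named, and of each other list up to 4 genes per comparison are named, those with the largest change among the ones past the threshold. The members and lists were chosen with earlier results of these data known. Promoter windows are those of RefSeq (GRCm38.p6).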

Additional observations from a re-analysis of the deposited data

Results flagged for a closer look

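The response of Nme1 to stimulation differed between genotypes, by -1.78 on the log2 scale (limma, adjusted p = 1.4e-10). It was drawn out because the test of the difference itself passed. The term was 0.13 with the other Nme1 probe set and did not pass without the trend.

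Prps2 was lower on both stimulated Nrdp1-/- arrays than on the untreated one, and higher on both stimulated wild-type arrays than on the untreated one. The response differed by -0.38 on the log2 scale. Every stimulated array of one genotype moved against those of the other, and the difference did not pass the genotype-by-stimulation test (limma, adjusted p = 1). On both other Prps2 probe sets the difference had the opposite sign, at 0.38 and 0.32. No value could be compared within a group of replicates, since each group held 1 array.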

How the results depend on the processing

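No paired analysis was possible because each group held 1 array and the labels give no replicate numbers. At 4 h the main count was 13 risen and 1 fallen members. It was 5 and 0 with a 2-fold minimum (2.47% of all genes risen) and 1 and 0 without the trend (0.766% of all genes risen). For time without the genotype term it was 6 and 0. The fallen count was 2 with quantile scaling, 0 with the mean of probe sets and 0 with the next brightest probe set, an alternative chosen after seeing the data. At 8 h the main count was 16 and 1. It was 7 and 0 with a 2-fold minimum (2.87% of all genes risen) and 1 and 0 without the trend (0.95% of all genes risen). The fallen count at 8 h was 2 with quantile scaling, 0 for time without the genotype term and 0 with the next brightest probe set. Leaving out 1 array gave 9 to 15 risen and 0 to 2 fallen members at 4 h, and 12 to 20 risen and 0 to 1 fallen at 8 h. It gave 0 to 1 risen and 0 to 1 fallen between 4 h and 8 h, and 0 to 1 higher in Nrdp1-/- cells. The 1 smaller response (Nme1) was 0 with the mean of probe sets and 0 without the trend, and the term turned to 0.13 with the next brightest probe set. The cause of these shifts was not tested. Where no share of all genes is given for a setting, calls lost by the members alone cannot be told from calls lost over all genes. Of the genes called at 4 h, 14 other bright probe sets were measured and 0 went the other way. Low signal limits Tyms and Tk1.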
